A study of Mus musculus with 21 samples.

Results

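A set of 10 genes, most of them for calcium-binding or cytoskeletal proteins, of 56953 genes counted, was examined in peritoneal B cells of mice: Anxa1, Anxa2 and Anxa6 of the annexin family, S100a4, S100a6, S100a10 and S100a11 of the S100 family, and Ahnak, Vim and Lgals1. They were chosen by symbol as genes tied to memory-like or B-1 cells, with earlier results of these data known, and all 10 passed the filter on low counts in every comparison. RNA was measured in 21 libraries of sorted B cells from the peritoneal cavity of C57BL/6 mice, wild type (WT) or with a global knockout of TET2 (TET2-KO), an enzyme that oxidizes methylated cytosines in DNA. The WT libraries came from B-1a (n = 4), B-1b (n = 4) and B-2 cells (n = 2), and the TET2-KO libraries from B-1a (n = 4), B-1b (n = 3) and B-2 cells (n = 4). The knockout lacks the exons for the catalytic region of TET2 in every cell of the mouse, so a difference by genotype is not limited to effects within B cells, and the labels give no age. The sort markers that separated the subsets included IgD, CD23 and CD5, and none of these is a product of the 10 genes. Total counts ranged from 9667187 to 24152518 per library. Genes with at least 1 count ranged from 27669 to 35576 in the TET2-KO B-2 libraries. In the TET2-KO B-1a and B-1b libraries they ranged from 17816 to 28140, and the part of this difference in the results was not tested. Levels are given as normalized counts per 1000000 counts (CPM) with TMM factors over the 21 libraries, and p-values come from edgeR's quasi-likelihood test, adjusted by Benjamini-Hochberg over all genes tested.

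Annexins bind acidic membrane lipids when calcium is present and take part in membrane repair, vesicle traffic and the membrane cortex. S100 proteins are small dimers, most but not all of them calcium sensors, that bind other proteins, among them annexins. S100a10 pairs with Anxa2 and S100a11 with Anxa1, and the Anxa2 and S100a10 complex binds the giant scaffold protein Ahnak under the plasma membrane. Vim forms the intermediate filaments of lymphocytes and myeloid cells, and Lgals1 encodes galectin-1, which binds sugars on glycoproteins. B-1 cells are long-lived B cells of the body cavities that make natural IgM, B-1a cells carry CD5 and B-1b cells do not, and B-2 cells are the conventional recirculating B cells. Macrophages, the other abundant cell of the peritoneal cavity, express the same 10 genes, so their RNA was followed through Adgre1, the gene of a macrophage surface receptor.

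The libraries were compared with their labels before the genes were tested. Fcer2a, which encodes CD23, stood at 817 CPM in the library labelled B-1a WT 1 and at 597 CPM in the one labelled B-1b WT 2, within the range of 533 to 846 CPM of the TET2-KO B-2 libraries, and at 24.2 CPM in the library labelled B-2 WT 1. Cd5 stood at 1.63 CPM in the library labelled B-1a WT 2 and at 17.9 CPM in the one labelled B-1b WT 1, against 15.7 to 20.8 CPM in TET2-KO B-1a and 2.93 to 4.91 CPM in TET2-KO B-1b libraries. The deposited labels were kept, and each comparison that uses these 5 libraries is given with and without them. All 11 TET2-KO libraries and the WT libraries numbered 3 and 4 matched their labels. Tet2 reads over the whole gene, which include exons outside the deletion and so do not check the genotype, ranged from 8.48 to 27.0 CPM in WT and from 12.8 to 33.4 CPM in TET2-KO libraries. Macrophage RNA was present in all libraries: Adgre1 ranged from 44.9 to 392 CPM, the 16 macrophage markers summed to between 5033 and 32284 CPM, and none of the 16 was at 0 throughout a group. Markers of neutrophils summed to at most 18.0 CPM and those of mesothelial cells and fibroblasts to at most 26.5 CPM. T cell markers summed to at most 112 CPM and dendritic cell markers to at most 126 CPM. Mast cell markers ranged higher, from 787 to 1243 CPM in TET2-KO B-1a, from 363 to 699 CPM in TET2-KO B-1b and from 633 to 1250 CPM in TET2-KO B-2 libraries. Erythroid markers summed to between 11.2 and 1709 CPM in WT and between 1.72 and 30.2 CPM in TET2-KO B-1a libraries, and to at most 144 CPM in the other groups. The part of T cell, dendritic cell, mast cell and erythroid RNA in the results was not tested.

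Per kilobase of exon, S100a6 was the most abundant of the 10 transcripts, with a median level of 1372 CPM per kb over the 21 libraries. S100a11 followed at 1100 and S100a10 at 757 CPM per kb, then Lgals1 at 415, Vim at 228, Anxa6 at 124 and Anxa2 at 115 CPM per kb. Anxa1 at 36.7, Ahnak at 16.7 and S100a4 at 12.1 CPM per kb were the least abundant. Of the 584 exonic bases of S100a4, 302 also lie in exons of the gene Gm42674, where fragments were not counted, so its level is not comparable with that of the others. The genes sit in close pairs where the family is clustered: on chromosome 3 (GRCm39), S100a4 spans 90511078 to 90513352 and S100a6 spans 90520189 to 90531488, and S100a11 (93427795 to 93433594) lies beside S100a10 (93462387 to 93471950). Anxa2 lies on chromosome 9 (69360902 to 69399077), Anxa6 on chromosome 11 (54869934 to 54924271), Vim on chromosome 2 (13578738 to 13587637) and Lgals1 on chromosome 15 (78810925 to 78814665), while Ahnak (8966648 to 9054278) and Anxa1 (20350792 to 20368308) share chromosome 19. The files list 1 named pseudogene of S100a11 and 2 of Lgals1, and fragments that could not be placed between a gene and such a copy were not counted. Together the 10 genes took between 0.322% and 0.973% of the counts of a library.

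**Figure D1:**
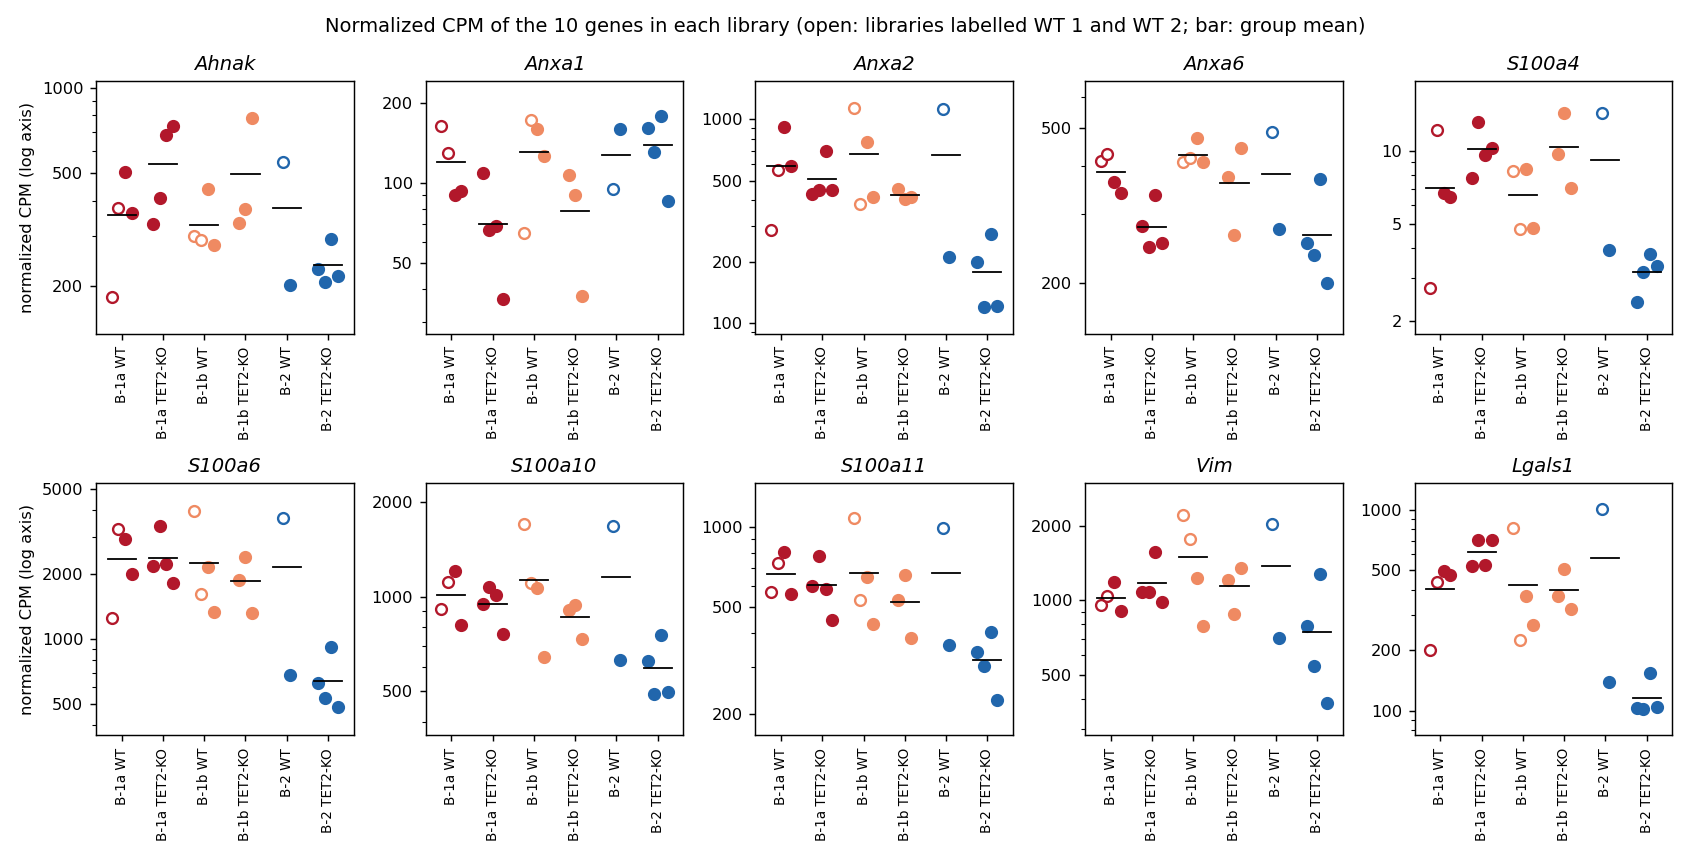
Normalized CPM of each of the 10 genes in the 21 libraries, on log axes, with a point for each library, a bar for each group mean and open points for the libraries labelled WT 1 and WT 2. In the TET2-KO groups the B-2 libraries (blue) lie below all B-1a libraries (dark red) for Ahnak, Anxa2, S100a4, S100a6, S100a10, S100a11 and Lgals1, and the open point of B-2 WT lies above the filled one for 9 of the genes, Anxa1 being the exception.

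To see how the 10 genes differ between B cell subsets, the TET2-KO libraries were compared first, since their sort-marker transcripts matched their labels. Of the 10 members, 7 were higher in B-1a than in B-2 cells, against 3.26% of the 18555 genes tested that were higher at the same threshold, and 0 were lower, against 2.57%. The median log2 fold change of the 10 genes was 1.10, against -0.053 over all genes. In the same TET2-KO libraries 4 of the 10 were higher in B-1b than in B-2 cells, against 1.52% of all genes, and 0 were lower, against 0.631%, with a median of 0.94 against -0.098. Both comparisons use the same 4 B-2 libraries. Of all genes tested, 604 were higher and 476 lower in B-1a cells, and 282 higher and 117 lower in B-1b cells, while DESeq2, which also keeps scarcer genes, split its calls 852 to 2626 and 510 to 2168. Of the members it called 7 higher and 1 lower in B-1a cells, against 3.47% and 10.7% of all genes, and 5 higher and 0 lower in B-1b cells, against 1.94% and 8.25%. With the library number as a block, since same-numbered TET2-KO libraries deviated together, edgeR called 8 members higher and 1 lower in B-1a cells, against 5.5% and 3.33% of all genes, and 5 higher in B-1b cells, against 2.47%. Groups that did not overlap were found for 7 members in B-1a cells, against 7.42% of all genes higher without overlap, and for 5 in B-1b cells, against 6.28%. In RNA of sorted cells, more cells with a transcript and more transcript per cell cannot be told apart.

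Among the S100 genes, S100a6, whose product binds calcium and several cytoskeletal proteins, had the highest levels. It stood at 2181, 3345, 2230 and 1817 CPM in the B-1a libraries TET2-KO 1 to 4, at 1876, 2407 and 1324 CPM in B-1b cells, and at 630, 532, 922 and 484 CPM in B-2 cells. The B-2 libraries lay below all 7 B-1 libraries. The log2 fold change was 1.94 ± 0.27 (SE; adjusted p = 0.000371) for B-1a against B-2 cells, a 3.83-fold difference, and 1.58 ± 0.28 (adjusted p = 0.0064) for B-1b against B-2 cells.

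S100a4, a partner of non-muscle myosin that is linked to cell movement, was scarce and was also higher in both B-1 subsets than in B-2 cells. Its values were 7.76, 13.2, 9.66 and 10.4 CPM in B-1a, 9.79, 14.4 and 7.09 CPM in B-1b and 2.39, 3.18, 3.76 and 3.35 CPM in B-2 libraries. Again no B-2 library reached a B-1 library. The log2 fold change was 1.73 ± 0.32 (adjusted p = 0.00348) in B-1a and 1.75 ± 0.33 (adjusted p = 0.0103) in B-1b cells.

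S100a10 and S100a11, the partners of Anxa2 and Anxa1, differed less. S100a10 stood at 946, 1076, 1014 and 760 CPM in B-1a and at 625, 489, 755 and 497 CPM in B-2 libraries, so that the highest B-2 library lay just under the lowest B-1a library. S100a11 stood at 600, 780, 588 and 449 CPM in B-1a and at 340, 303, 405 and 225 CPM in B-2 libraries, which did not overlap either. The log2 fold changes for B-1a against B-2 cells were 0.72 ± 0.20 (adjusted p = 0.0432) for S100a10 and 0.96 ± 0.24 (adjusted p = 0.0246) for S100a11. In B-1b cells both overlapped with B-2 cells, with 0.58 ± 0.21 (adjusted p = 0.162) and 0.76 ± 0.25 (adjusted p = 0.128).

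Of the annexins, Anxa2 rose, Anxa6 did not pass the test and Anxa1 pointed the other way. Anxa2, the partner of S100a10 at the membrane, stood at 430, 452, 697 and 448 CPM in B-1a, at 456, 404 and 417 CPM in B-1b and at 198, 120, 274 and 122 CPM in B-2 libraries. It was 2.91-fold higher in B-1a cells (log2 fold change 1.54 ± 0.26, adjusted p = 0.0021) and 2.45-fold higher in B-1b cells (1.29 ± 0.28, adjusted p = 0.023), without overlap. Anxa6, a large annexin of membrane and cholesterol traffic, stood between 247 and 337 CPM in B-1a, between 266 and 444 CPM in B-1b and between 201 and 371 CPM in B-2 libraries, with log2 fold changes of 0.11 ± 0.22 and 0.48 ± 0.24 against B-2 cells (adjusted p = 0.806 and 0.275).

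Anxa1, a mediator of the resolution of inflammation, stood at 109, 66.4, 68.6 and 36.6 CPM in B-1a, at 107, 90.0 and 37.6 CPM in B-1b and at 161, 131, 179 and 85.6 CPM in B-2 libraries. The groups overlapped, but within each of the 4 numbers the B-1a library was the lower one, at 0.383 to 0.678 times the B-2 library, and so was the B-1b library in 3 of 3. The log2 fold change for B-1a against B-2 cells was -0.95 ± 0.35 (adjusted p = 0.122), and with the library number as a block it was -1.02 ± 0.24 (adjusted p = 0.0209). For B-1b against B-2 cells it was -0.80 ± 0.38 (adjusted p = 0.269). Anxa1 was the one member of the 10 with a negative fold change in both comparisons.

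Promoter sequences are printed for S100a6, S100a11 and Anxa2, which were higher in B-1a than in B-2 cells, and for Anxa1, which was not. They are from RefSeq (GRCm38.p6), from 250 bases before to 50 bases after the annotated start, 5′ to 3′ on the strand of the gene. The RefSeq table held 7 of the 10 members, and S100a4 and Ahnak, also higher in B-1a cells, are not printed. Capitals mark matches on either strand to an E-box (CACGTG), an AP-1 site (TGANTCA) or a GC box (GGGCGG).
S100a6, chr3:90612644-90612943, plus strand: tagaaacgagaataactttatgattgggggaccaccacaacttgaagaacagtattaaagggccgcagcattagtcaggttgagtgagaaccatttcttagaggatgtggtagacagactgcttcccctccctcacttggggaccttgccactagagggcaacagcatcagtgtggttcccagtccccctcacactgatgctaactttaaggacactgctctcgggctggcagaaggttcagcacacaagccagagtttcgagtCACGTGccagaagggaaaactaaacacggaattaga
S100a11, chr3:93520246-93520545, plus strand: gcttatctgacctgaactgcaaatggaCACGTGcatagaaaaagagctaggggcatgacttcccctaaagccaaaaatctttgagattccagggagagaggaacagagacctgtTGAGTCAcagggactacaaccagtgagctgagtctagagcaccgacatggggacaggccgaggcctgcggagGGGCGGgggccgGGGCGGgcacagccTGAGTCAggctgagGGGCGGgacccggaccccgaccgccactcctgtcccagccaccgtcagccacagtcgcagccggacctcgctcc
Anxa2, chr9:69453433-69453732, plus strand: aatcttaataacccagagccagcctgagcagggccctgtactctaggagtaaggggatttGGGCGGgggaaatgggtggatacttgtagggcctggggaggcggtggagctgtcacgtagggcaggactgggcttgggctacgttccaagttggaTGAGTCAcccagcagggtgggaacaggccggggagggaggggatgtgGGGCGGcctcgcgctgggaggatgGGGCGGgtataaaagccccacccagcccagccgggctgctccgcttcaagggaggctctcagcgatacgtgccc
Anxa1, chr19:20390622-20390921, minus strand: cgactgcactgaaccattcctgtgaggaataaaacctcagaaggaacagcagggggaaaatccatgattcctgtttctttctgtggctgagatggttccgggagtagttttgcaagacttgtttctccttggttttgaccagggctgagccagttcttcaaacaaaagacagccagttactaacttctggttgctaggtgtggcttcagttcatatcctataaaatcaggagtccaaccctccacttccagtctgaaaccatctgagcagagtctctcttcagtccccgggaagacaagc
An E-box was found in the S100a6 and S100a11 windows, and in 7.15% of all 32851 promoters of the table. The S100a11 window held 2 AP-1 matches and the Anxa2 window held 1, against 7.81% of all promoters with a match. GC boxes were found 3 times each in S100a11 and Anxa2 and 4 times in Ahnak, against 35.7% of all promoters with a match. The windows of Anxa1, S100a4 and Vim held none of the 3 motifs. These matches are descriptions of the windows and were not tested.

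Ahnak, the scaffold that binds the Anxa2 and S100a10 complex, stood at 331, 410, 682 and 733 CPM in B-1a, at 334, 373 and 783 CPM in B-1b and at 229, 206, 292 and 218 CPM in B-2 libraries. All 7 B-1 libraries lay above the B-2 libraries, with a wide spread among the B-1 libraries themselves. The log2 fold change was 1.23 ± 0.30 (adjusted p = 0.0249) for B-1a and 1.12 ± 0.32 (adjusted p = 0.0883) for B-1b against B-2 cells. With the library number as a block the B-1b difference passed the threshold, at 1.07 ± 0.22 (adjusted p = 0.0194).

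Lgals1 had the largest subset difference of the 10 genes. It stood at 528, 709, 530 and 711 CPM in B-1a, at 373, 505 and 322 CPM in B-1b and at 104, 102, 153 and 104 CPM in B-2 libraries. The lowest B-1 library lay far above the highest B-2 library. The log2 fold change was 2.46 ± 0.22 (adjusted p = 4.37e-06), or 5.50-fold, for B-1a and 1.83 ± 0.22 (adjusted p = 0.000345), or 3.55-fold, for B-1b against B-2 cells.

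Vim stood at 1079, 1081, 1566 and 984 CPM in B-1a, at 1213, 879 and 1347 CPM in B-1b and at 784, 540, 1279 and 383 CPM in B-2 libraries. The groups overlapped through the library TET2-KO 3, which was the highest of its group in both B-1a and B-2 cells. The log2 fold change for B-1a against B-2 cells was 0.69 ± 0.31 (adjusted p = 0.185), and 0.81 ± 0.19 (adjusted p = 0.0224) with the library number as a block. For B-1b against B-2 cells it was 0.66 ± 0.33 (adjusted p = 0.287).

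**Figure D2:**
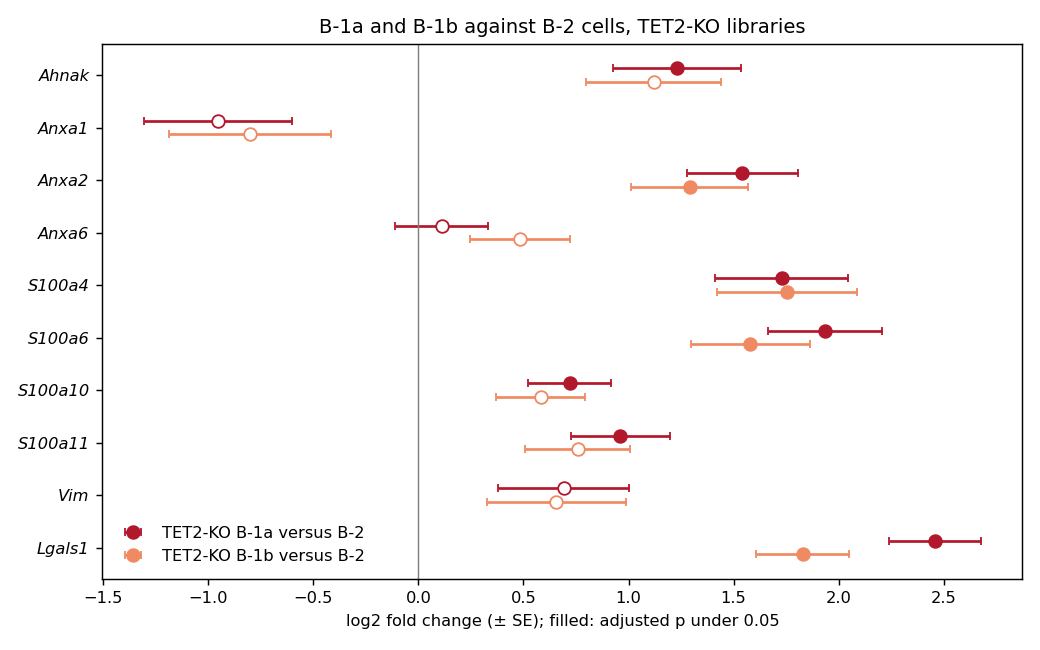
Log2 fold change with its standard error of each of the 10 genes in B-1a (dark red) and B-1b (orange) against B-2 cells, TET2-KO libraries. Filled points passed an adjusted p of 0.05: 7 genes in B-1a and 4 in B-1b cells, all of them higher than in B-2 cells, while Anxa1 lies left of 0 in both.

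The counts of 7 and 4 rest on few libraries. When each of the 11 TET2-KO libraries was left out in turn, Anxa2, S100a4, S100a6 and Lgals1 stayed past the threshold for B-1a against B-2 cells in 11 of 11 fits, Ahnak and S100a11 in 6 and S100a10 in 3. The count fell to 4 without B-1a TET2-KO 3 and without B-2 TET2-KO 1, 2 or 4. For B-1b against B-2 cells, S100a6 and Lgals1 passed in 11 of 11 fits, S100a4 in 10 and Anxa2 in 5, and the count fell to 2 without B-1b TET2-KO 2.

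The subset differences were then set against macrophage RNA. Adgre1 did not pass the edgeR test without the library number as a block. It stood at 392, 290, 223 and 44.9 CPM in B-1a and at 285, 192, 185 and 45.0 CPM in B-2 libraries (log2 fold change 0.46 ± 0.61, adjusted p = 0.699). Within same-numbered libraries Adgre1 was higher in the B-1a library in 3 of 4 pairs, at 1.38, 1.52 and 1.21 times the B-2 level. Of the 16 macrophage markers, 0 passed the test in either direction for B-1a or B-1b against B-2 cells. Summed over the 16 markers, the TET2-KO libraries ranged from 5102 to 30790 CPM in B-1a, from 6865 to 16238 CPM in B-1b and from 5033 to 21956 CPM in B-2 cells. Most of these sums was Lyz2, which averaged 15704 CPM in B-1a, 9722 CPM in B-1b and 13350 CPM in B-2 libraries. The libraries TET2-KO 4 had the least macrophage RNA in both subsets, with 5102 CPM for the 16 markers in B-1a and 5033 CPM in B-2 cells, and Adgre1 at 0.998 times the B-2 level. This pair was unequal in depth and genes with a count, at 15937009 counts and 18941 genes in B-1a against 9667187 counts and 35576 genes in B-2 cells. In that pair S100a6 was 3.75-fold, Lgals1 6.82-fold, Anxa2 3.68-fold, S100a4 3.09-fold and Ahnak 3.37-fold higher in the B-1a library, and Anxa1 stood at 0.428 times the B-2 level.

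With the Adgre1 level of each library as a covariate, 7 members were higher in B-1a than in B-2 cells, against 4.74% of all genes, with fold changes for S100a6 of 1.87 ± 0.23 and for Lgals1 of 2.46 ± 0.21 on the log2 scale. Anxa1 passed the threshold as lower in this fit, at -1.15 ± 0.23 (adjusted p = 0.00544), against 3.58% of all genes lower. In the B-1b comparison the same covariate brought 5 members past the threshold as higher, against 2.39% of all genes, Ahnak among them (1.16 ± 0.29, adjusted p = 0.0433), and Anxa1 as lower (-0.99 ± 0.25, adjusted p = 0.0474), against 0.97% of all genes lower. Across same-numbered libraries, Adgre1 ranged from 0.998 to 1.52 times the B-2 level in B-1a cells. The ratio ranged from 3.45 to 6.96 for Lgals1 and from 2.42 to 6.29 for S100a6. These fits and ratios do not measure the part of macrophage RNA in the differences of the members, which was not tested.

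**Figure D3:**
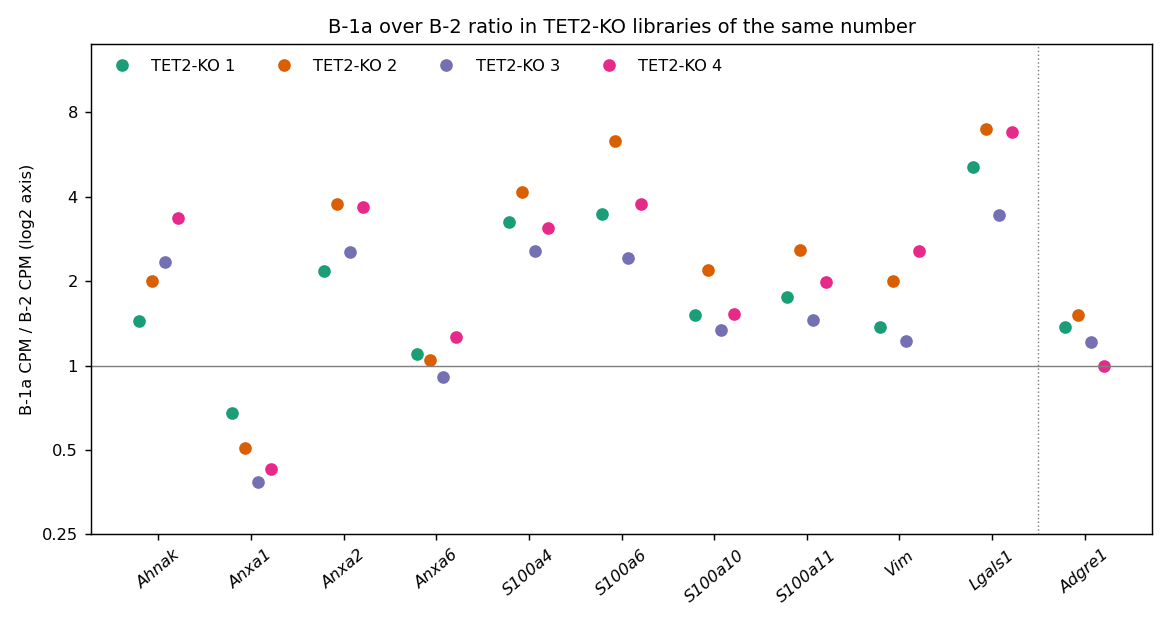
Ratio of the B-1a to the B-2 level for the 10 genes and the macrophage gene Adgre1, in TET2-KO libraries of the same number (colours; log2 axis, line at 1). All 4 ratios lie above 1 for 8 of the genes and below 1 for Anxa1, and Adgre1 lies between 0.998 and 1.52.

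B-1b and B-1a cells of TET2-KO mice were compared next: 0 of 10 passed the threshold, against 0.205% of all genes, with 1 member at an unadjusted p under 0.05. DESeq2 also called 0 members after adjustment, against 0.765% of all genes, and had 1 member at an unadjusted p under 0.05. That member was Lgals1, which stood at 373, 505 and 322 CPM in B-1b and at 528 to 711 CPM in B-1a libraries, without overlap (-0.63 ± 0.23, adjusted p = 0.743). Over all genes 3.04% were lower in B-1b libraries without overlap. The remaining 9 members overlapped, with log2 fold changes from -0.36 for S100a6 to 0.37 for Anxa6. Within the 3 same-numbered pairs, Lgals1, S100a6, S100a10 and S100a11 were each lower in the B-1b library 3 times, at 0.608 to 0.713 times the B-1a level for Lgals1 and 0.594 to 0.860 times for S100a6, and Anxa6 was higher 3 times. Adgre1 was lower in the B-1b library of the same 3 pairs, at 0.586 to 0.739 times the B-1a level. With the number as a block, 0 members passed the threshold, against 0.555% of all genes.

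The same subset comparisons in WT mice depended on the libraries labelled WT 1 and WT 2. With all 10 WT libraries, 0 members and 0.0% of the 16769 genes tested differed between B-1a and B-2, B-1b and B-2, or B-1b and B-1a cells, with 0 members at an unadjusted p under 0.05 in each. DESeq2 called 0 members in each, against 0.00514%, 0.00257% and 0.0% of all genes. S100a6 stood at 3658 CPM in the library labelled B-2 WT 1 and at 680 CPM in B-2 WT 4, and Lgals1 at 1011 and 139 CPM. The values in the library labelled B-2 WT 1 lay above those of all 8 TET2-KO B-1a and B-2 libraries for both genes, and those of B-2 WT 4 lay within the range of the TET2-KO B-2 libraries. In the library labelled B-1a WT 1, S100a6 stood at 1254 CPM and Lgals1 at 199 CPM, below all 4 TET2-KO B-1a libraries.

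**Figure D4:**
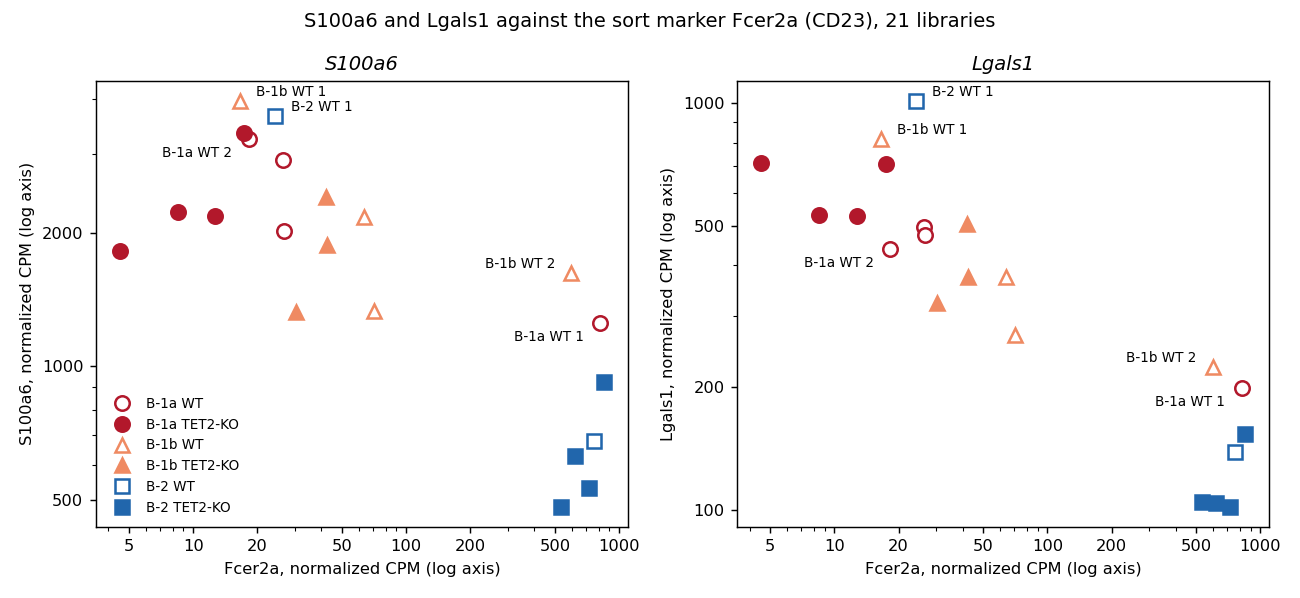
Level of S100a6 (left) and Lgals1 (right) against Fcer2a, which encodes the sort marker CD23, in the 21 libraries (log axes, normalized CPM). The libraries labelled B-1a WT 1 and B-1b WT 2 lie at the right with the B-2 libraries, at 817 and 597 CPM of Fcer2a, and the library labelled B-2 WT 1 lies at the left, at 24.2 CPM, with high levels of both genes.

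Without those libraries, 2 B-1a, 2 B-1b and 1 B-2 library remained, and the spread was estimated from the 4 B-1 libraries, with the lone B-2 library assumed to vary like them. Of the 10 members, 2 were then higher in B-1a than in B-2 cells, against 4.2% of 18629 genes, and 1 was lower, against 2.96%. Lgals1 stood at 495 and 475 CPM against 139 CPM (log2 fold change 1.83 ± 0.20, adjusted p = 4.74e-07), and S100a6 at 2908 and 2018 CPM against 680 CPM (1.88 ± 0.34, adjusted p = 0.0106). Anxa1 was lower, at 90.3 and 93.4 CPM against 160 CPM (-0.78 ± 0.17, adjusted p = 0.00316). The same 3 directions were those of the TET2-KO libraries. Anxa2 had a fold change of similar size that did not pass, at 909 and 592 CPM against 212 CPM (1.85 ± 0.60, adjusted p = 0.289).

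In B-1b against B-2 cells of this reduced WT set, Lgals1 stood at 374 and 268 CPM against 139 CPM (1.22 ± 0.20, adjusted p = 0.000183) and Anxa6 at 471 and 408 CPM against 275 CPM (0.69 ± 0.18, adjusted p = 0.0189). These 2 were higher, against 2.99% of all genes, and 0 members were lower, against 2.54%. Between the B-1 subsets, Lgals1 was lower in B-1b than in B-1a cells (-0.61 ± 0.15, adjusted p = 0.022, against 2.16% of all genes lower) and Anxa1 was higher, at 160 and 127 CPM against 90.3 and 93.4 CPM (0.63 ± 0.14, adjusted p = 0.00904, against 1.06% higher). With 1 B-2 library the WT comparison has no replicate check on the B-2 side.

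The study asked how loss of TET2 changes gene expression within each subset. In B-1a cells 0 of 10 members passed the threshold between TET2-KO and WT, against 0.0503% of the 13923 genes tested. At an unadjusted p under 0.05 there were 3 members, beside 1093 of all genes tested. DESeq2 also called 0 members after adjustment, against 0.967% of all genes, and had 3 members, beside 1919 genes, at an unadjusted p under 0.05. Those 3 were Anxa6, Lgals1 and Anxa1. Anxa6 stood between 247 and 337 CPM in TET2-KO and between 340 and 429 CPM in WT libraries, without overlap (-0.42 ± 0.14, adjusted p = 0.559), and 3.48% of all genes were lower without overlap. Lgals1 stood between 528 and 711 CPM in TET2-KO and between 199 and 495 CPM in WT libraries (0.66 ± 0.28, adjusted p = 0.622), and 2.15% of all genes were higher without overlap. Anxa1 stood at 36.6 to 109 CPM in TET2-KO and at 90.3 to 164 CPM in WT libraries (-0.73 ± 0.30, adjusted p = 0.622). With the WT libraries numbered 1 and 2 left out, the fold changes of the 3 genes were -0.32 ± 0.18, 0.37 ± 0.20 and -0.38 ± 0.35. In that fit 0 members and 0.0% of all genes passed. Adgre1 had a fold change of -0.00041 ± 0.52 in the same comparison, and 0 of the 16 macrophage markers passed. S100a6, S100a10 and S100a11 had fold changes of 0.059 ± 0.30, -0.054 ± 0.17 and -0.11 ± 0.19.

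In B-1b cells 0 of 10 members and 0.0% of the 14368 genes tested differed by genotype. At an unadjusted p under 0.05 there were 0 members, beside 787 of all genes tested. DESeq2 called 0 members after adjustment, against 0.297% of all genes. It had 2 members, Ahnak and Anxa1, at an unadjusted p under 0.05, beside 1474 genes. The log2 fold changes ranged from -0.73 ± 0.39 for Anxa1 (37.6 to 107 CPM in TET2-KO, 64.9 to 173 CPM in WT libraries) to 0.68 ± 0.34 for S100a4 (7.09 to 14.4 CPM in TET2-KO, 4.79 to 8.49 CPM in WT libraries). Ahnak followed at 0.65 ± 0.33, through the library TET2-KO 3 at 783 CPM, while TET2-KO 1 and 2 at 334 and 373 CPM lay within the WT range of 280 to 439 CPM. With Adgre1 as a covariate, Ahnak had 1.17 ± 0.23 (adjusted p = 0.0939) and Anxa1 had -1.43 ± 0.44 (adjusted p = 0.125), and 0 members passed, against 0.0139% of all genes. The effect of genotype was also compared between B-1a and B-1b cells by an interaction term, which 0 of 10 members and 0.0% of 15972 genes passed. At an unadjusted p under 0.05 there were 0 members, beside 250 of all genes tested. DESeq2 called 0 members, against 0.00241% of all genes. With the doubted WT libraries left out, 0 members passed again, and the median interaction of the members went from 0.26, with 6 of 10 above 0, to -0.076, with 2 of 10 above 0.

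In B-2 cells 0 of 10 members and 0.0% of the 19786 genes tested passed the threshold. At an unadjusted p under 0.05 there were 6 members, beside 1754 of all genes tested. DESeq2 called 3 members lower in TET2-KO, against 0.112% of all genes. The fold changes were large and came with the library labelled B-2 WT 1, as with Lgals1, which stood at 102 to 153 CPM in TET2-KO libraries and at 1011 and 139 CPM in WT libraries (-2.33 ± 0.60, adjusted p = 0.531). S100a6 had -1.78 ± 0.56 and Anxa2 had -1.92 ± 0.59. Without B-2 WT 1, the fold changes of the 3 genes were -0.29 ± 0.35, -0.11 ± 0.44 and -0.27 ± 0.48, with B-2 WT 4 as the lone WT library. Without B-2 WT 4 instead, 4 members were called lower, beside 169 genes called lower and 407 called higher of 24732. That fit holds the library labelled B-2 WT 1 as its lone WT library. Each of these fits with a lone WT library takes the spread from the TET2-KO libraries alone and so does not test the genotypes.

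**Figure D5:**
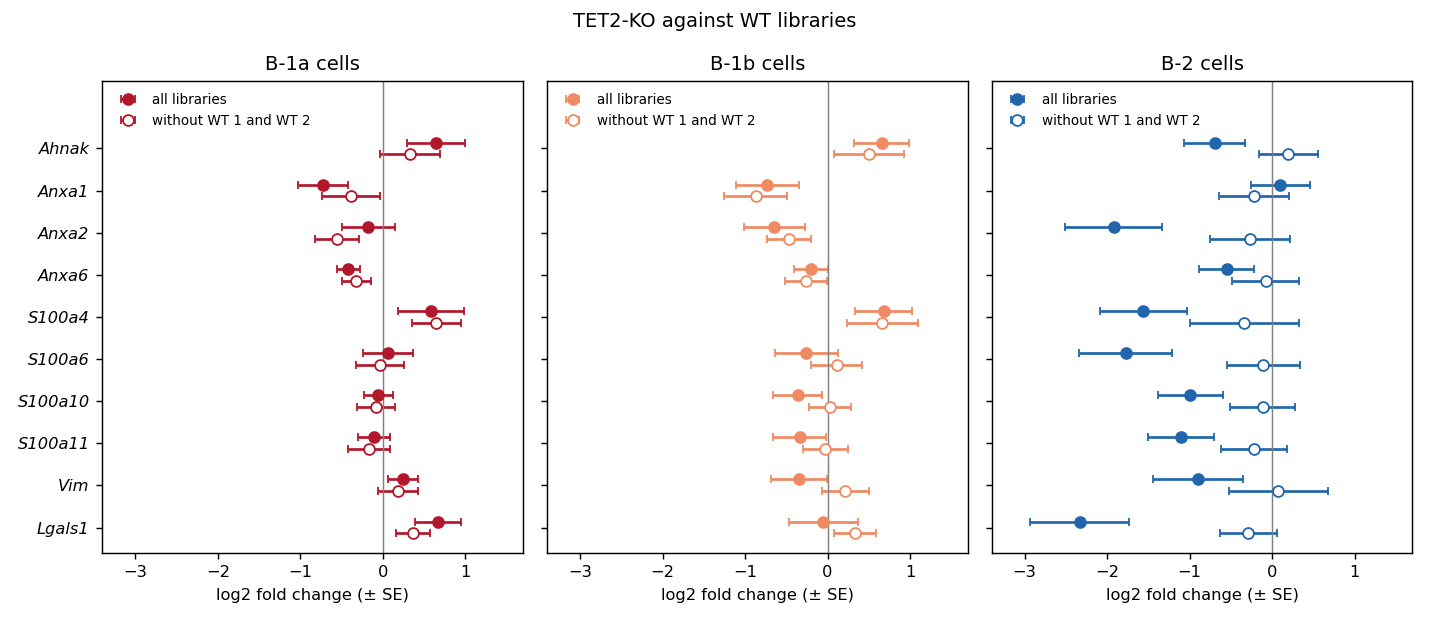
Log2 fold change with its standard error of the 10 genes between TET2-KO and WT libraries in each subset, with all libraries (filled) and with those labelled WT 1 and WT 2 left out (open). No gene passed an adjusted p of 0.05 with all libraries, or in B-1a and B-1b cells without those labelled WT 1 and WT 2. In B-2 cells the fold changes of Lgals1, Anxa2 and S100a6 move from -2.33, -1.92 and -1.78 to between -0.29 and -0.11. The open points of B-2 cells rest on a lone WT library and do not test the genotypes.

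Relatives of the 10 genes were counted from lists in the TET2-KO subset comparisons. Of 7 further annexins tested, Anxa5 and Anxa11 were higher and Anxa10 was lower in B-1a than in B-2 cells. Anxa5, known for binding phosphatidylserine on dying cells, averaged 289 CPM in B-1a and 152 CPM in B-2 libraries (0.96 ± 0.19, adjusted p = 0.00679), and was also higher in B-1b cells (0.84 ± 0.20, adjusted p = 0.0442). Of 5 further S100 genes tested, 1 passed: S100a5 averaged 6.50 CPM in B-1a, 8.97 CPM in B-1b and 1.42 CPM in B-2 libraries (2.22 ± 0.36, adjusted p = 0.00129 in B-1a cells). Of 5 further galectins, Lgals3 was higher in B-1a cells, with 234 against 131 CPM (0.88 ± 0.22, adjusted p = 0.0269). Macrophages express Lgals3 abundantly, and the part of macrophage RNA in this difference was not tested.

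Of 14 genes tested for membrane repair and for partners of the members, 3 were higher and 0 lower in B-1a than in B-2 cells. The largest was Ahnak2, the second giant Ahnak gene, at 206 against 11.2 CPM (4.24 ± 0.29, adjusted p = 9.71e-07), and at 111 CPM in B-1b libraries (3.35 ± 0.29, adjusted p = 2.02e-05). Spn, which encodes the B-1 cell surface protein CD43, averaged 34.4 and 23.4 CPM in B-1a and B-1b and 9.04 CPM in B-2 libraries, and was higher in both (1.97 ± 0.29 and 1.42 ± 0.31). Plgrkt, a plasminogen receptor, was higher in B-1a cells (1.13 ± 0.25, adjusted p = 0.0136). Of 5 intermediate filament and lamina genes tested outside Vim, 2 were higher: the keratin partners Krt8 and Krt18, at 35.6 and 34.3 CPM in B-1a against 3.67 and 2.98 CPM in B-2 libraries (3.29 ± 0.56 and 3.53 ± 0.43). Both were also higher in B-1b cells.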

How the data were processed

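RNA from sorted peritoneal B cells was sequenced from ultra-low input in 21 libraries. The authors trimmed reads with fastp, aligned them with STAR to GRCm39 and deposited raw gene counts from featureCounts 1.6.1 with the GENCODE vM32 annotation, counted as unstranded fragments, so a gene and its antisense partner cannot be told apart, and fragments on several genes or places were left out. The labels and the study's methods describe the cDNA step differently (poly-T selection with random hexamers, or full-length amplification), and any length bias was not tested. Symbols were matched to 56310 of 56953 gene IDs.

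The 10 members, the gene lists and the tests were chosen with earlier results of these data known. Named genes were the 10 members, Adgre1, list genes past the threshold and the genes with the most similar pattern. Counts were filtered by filterByExpr and tested with edgeR 4.0.16 (TMM factors, robust quasi-likelihood test, Benjamini-Hochberg adjustment, threshold 0.05; limma 3.58.1, R 4.3.3). Genotypes were fitted within each subset, subsets within each genotype, and the interaction over the B-1a and B-1b libraries. DESeq2 1.42.0, RLE factors, no filter, TMM without immunoglobulin genes, a replicate block, an Adgre1 covariate and leaving out libraries were the alternatives. Tests were checked on simulated counts.

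Same-numbered TET2-KO libraries deviated together over 2000 genes (r from 0.244 to 0.785). Their numbers paired them in the replicate block and the same-number ratios, but not in the main tests. No label says what a number shares. Nothing in the labels says that the libraries of a group came from separate mice, so p-values measure the spread between these libraries, which may be technical. No 2 of the libraries held identical counts. Depth (9667187 to 24152518 counts) gave every member reads in every library.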

Additional observations from a re-analysis of the deposited data

Results flagged for a closer look

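In 44 groups of 4 libraries, those of the 10 genes and Adgre1, 4 had a library set apart from the other three by Dixon's test, and chance alone sets apart about 1 group in 20. Ahnak stood at 439 CPM in B-1b WT 3, where the other WT libraries of B-1b cells lay between 280 and 300 CPM. Anxa2 stood at 697 CPM and Vim at 1566 CPM in B-1a TET2-KO 3, above the 430 to 452 CPM and the 984 to 1081 CPM of the other B-1a TET2-KO libraries. Lgals1 stood at 153 CPM in B-2 TET2-KO 3, above 102 to 104 CPM in the other B-2 TET2-KO libraries. In 3 of the 4 cases the library was numbered TET2-KO 3.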

How the results depend on the processing

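Each result was recomputed under the alternatives. In the TET2-KO comparisons with B-2 cells no member changed direction except Anxa6, from -0.0084 to 0.25 in B-1a cells over the fits that left out 1 library. Leaving out 1 library gave 4 to 8 members for B-1a against B-2 cells and 2 to 4 for B-1b against B-2 cells, and no filter on low counts gave 7 for the latter, beside 432 genes higher and 438 lower of 44737. RLE factors moved the median of all genes by -0.099 in B-1a and -0.10 in B-1b cells. For B-1b against B-1a cells the ranges were -0.62 to 0.10 for Ahnak, -0.14 to 0.48 for Anxa1, -0.28 to 0.23 for S100a4 and -0.18 to 0.13 for Vim, and Anxa1 was -0.071 with the replicate block.

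For genotype in B-1a cells, no filter gave 2 members past the threshold, beside 98 genes higher and 220 lower of 38366. Leaving out 1 library gave -0.42 to 0.13 for Anxa2, -0.16 to 0.24 for S100a6, -0.14 to 0.052 for S100a10 and -0.25 to 0.0062 for S100a11, and without both doubted WT libraries S100a6 was -0.034. In B-1b cells it gave -0.48 to 0.16 for S100a6 and -0.26 to 0.50 for Lgals1. There, without WT 1 and WT 2, S100a6 was 0.11, S100a10 0.030, Vim 0.21 and Lgals1 0.33, and with Adgre1 as a covariate Anxa6 was 0.022 and Vim 0.013, while Ahnak went from 0.65 to 1.17 and Anxa1 from -0.73 to -1.43. In B-2 cells DESeq2 gave 3 members, no filter 3, beside 47 genes higher and 120 lower of 43252, and leaving out 1 library 0 to 4. The ranges were -1.23 to 0.20 for Ahnak, -0.22 to 0.56 for Anxa1 and -1.44 to 0.073 for Vim, whose ends without WT 1 are 0.20, -0.22 and 0.073, and Anxa1 was -0.12 with the replicate block. WT subsets without WT 1 and WT 2 gave 3, 2 and 2 members. Same-numbered WT and TET2-KO libraries had r from -0.11 to 0.33, and same-numbered WT libraries had r from -0.50 to 0.62. The WT group means hold the doubted libraries, so whether these numbers pair cannot be decided here. The replicate block left 0 members called in the genotype and WT subset comparisons. The causes of these changes were not tested.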

Other observations

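Genes linked to memory B cells also differed between subsets of TET2-KO mice. Of 15 tested, 6 were higher and 3 lower in B-1a than in B-2 cells, and 6 were higher and 2 lower in B-1b than in B-2 cells. Zbtb32, a transcriptional repressor of memory B cell recall, averaged 457 CPM in B-1a, 446 CPM in B-1b and 77.3 CPM in B-2 libraries (log2 fold changes 2.60 ± 0.22 and 2.57 ± 0.23). Plscr1, a calcium-binding membrane protein, averaged 191, 143 and 31.9 CPM (2.62 ± 0.31 and 2.19 ± 0.32). Ccr6, a chemokine receptor of memory precursors, was lower, at 0.889 and 4.36 against 18.9 CPM (-4.37 ± 0.51 and -2.09 ± 0.50). Of 22 actin and cortex genes, 2 were higher in B-1a cells, Lsp1 (2986 against 1492 CPM, 1.04 ± 0.21) and Capg (1561 against 868 CPM, 0.88 ± 0.19). In B-1b cells edgeR called 0 of the 22.

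Over the 21 libraries, the genes whose level followed the mean standardized level of the 10 members most closely were Plp2 (Pearson r 0.961), Tpi1 (0.950), Lsp1 (0.947), Pepd (0.944) and Tubb6 (0.943), among 9647 genes. Of the members, Anxa2 (0.962) and S100a6 (0.953) followed it most closely, and Ahnak (0.614) and Anxa1 (-0.237) least, although each member is itself part of the mean. Adgre1 had 0.167. These libraries share subset, genotype and the doubted labels, so the values are descriptions.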
